A study of Mus musculus with 24 samples.

Results

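The genes *Klf2*, *Klf3*, *Klf4*, *Klf5*, *Klf6* and *Klf9*, which encode Kruppel-like factors, were followed in RNA-seq of differentiating male mouse embryonic stem cells (mESCs) after knockdown of *Smarcc1* or *Smarca4*. They were taken by gene symbol, with earlier results of these data known, and are 6 of the 25965 entries measured. All 6 passed the filter on low values (a mean log2 rpm of at least 0, where rpm is a gene's reads scaled to the library's total), which left 13296 genes for testing.

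The cells were C57/Bl6 mESCs that had been expanded in 2i, a medium with inhibitors of MEK and GSK3, and were then weaned into the serum-containing medium DME HiHi without LIF. Every group, the control included, received a retroviral short hairpin RNA on day 2 of differentiation, was selected with puromycin on day 3, and was harvested on days 4, 5, 6 and 7. The groups were a nonsilencing control (Nons, 1 library on each day), *Smarcc1* knockdown with hairpins Smarcc1.6 and Smarcc1.7, and *Smarca4* knockdown with hairpins Smarca4.4 and Smarca4.6 (1 library for each hairpin and day), 20 libraries in all. *Smarcc1* encodes a core scaffold subunit and *Smarca4* an ATPase of the BAF chromatin remodelling complex, and the comparison asks how their loss alters transcription while the cells differentiate. The genotype label of the *Smarca4* libraries names *Smarcc*, so their titles were followed. A second Nons series of 4 libraries was not analysed here, so the control has no replicate on any day and the spread comes from the 2 hairpins of each target. The labels do not say whether the libraries of one hairpin come from separate cultures, so the p-values measure the spread between these libraries, which may be technical. Both knockdowns were compared with the same 4 Nons libraries.

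Kruppel-like factors are zinc-finger transcription factors that bind CACCC boxes and other GC-rich elements. In mESCs *Klf2*, *Klf4* and *Klf5* sustain the naive pluripotent state together with *Esrrb*, *Nanog* and other factors. *Klf4* is a target of LIF and Stat3 signalling, *Klf2* is kept on in 2i medium, and both are silenced as cells leave the naive state. *Klf3* is mainly a repressor that works through the corepressor CtBP, *Klf6* is a broadly expressed factor known for its rapid induction after injury and growth signals, and *Klf9* is a broadly expressed factor induced by glucocorticoid and thyroid hormone.

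The library totals ran from 6829596 reads (Smarca4.4 on day 5) to 27472885 reads, and the second smallest was 15717152 reads. The targeted genes were lower than in the same-day Nons library in every library of their knockdown, at 23.7% to 60.1% of it for *Smarcc1* (n = 8) and 21.6% to 55.3% for *Smarca4* (n = 8). The 2 hairpins of a target lay further apart on days 5 and 6 than on days 4 and 7: over the genes tested, the median absolute log2 gap was 0.53 and 0.47 for *Smarcc1* and 0.41 and 0.37 for *Smarca4* on days 5 and 6, against 0.09 to 0.18 on days 4 and 7. Among the Kruppel-like factors, 9 of 12 pairs of a gene and a target had their widest hairpin gap on day 5. The pluripotency markers *Pou5f1*, *Sox2*, *Nanog*, *Utf1*, *Dppa5a* and *Tdgf1*, which define the labelled cell type, were read in every group, with a summed level of 4112 rpm on day 4 and 1051 rpm on day 7 in Nons.

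With *Smarcc1* knockdown, 2 of the 6 factors, *Klf2* and *Klf4*, were higher than in Nons over the 4 days, and 1, *Klf6*, was lower, a call lost with the series as a replicate block (adjusted p = 0.151) and in 11 of 18 alternative settings in all. In this comparison 10.6% of all genes tested were called (7.54% higher and 3.08% lower; limma-trend, Benjamini-Hochberg adjusted p under 0.05). With *Smarca4* knockdown *Klf2* alone was called, higher than in Nons, against a background of 6.71% of all genes called and 4.75% called higher. Between the knockdowns, 1 factor, *Klf4*, was called, with the higher level under *Smarcc1* knockdown, where 4.09% of all genes were called. The median log2 difference of the 6 factors was 0.28 for *Smarcc1* and 0.26 for *Smarca4* knockdown, beside 0.06 over all genes in both comparisons.

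**Figure D1:**
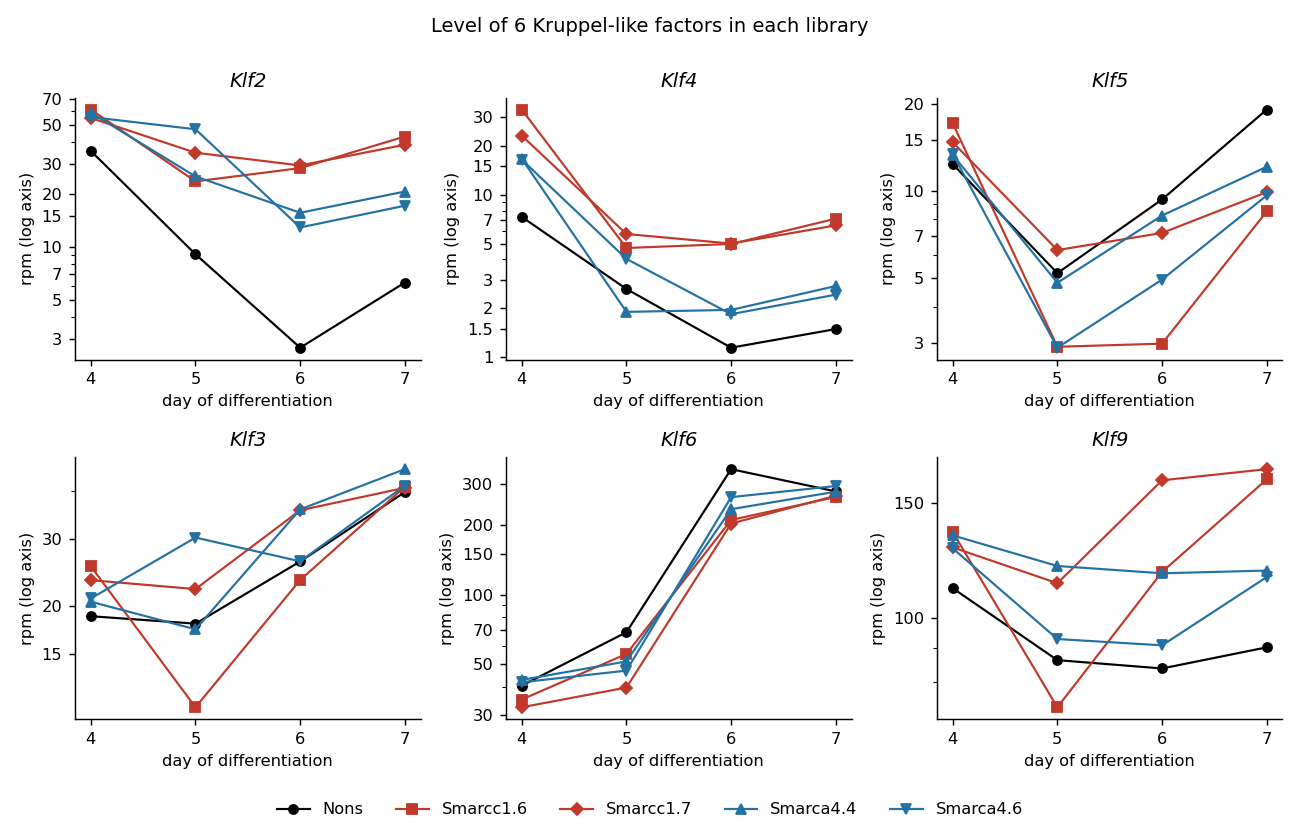
Level of each gene (rpm, log axis) on days 4 to 7 of differentiation, 1 point per library, with Nons in black, the *Smarcc1* hairpins in red and the *Smarca4* hairpins in blue. In the *Klf2* panel the Nons points, between 2.67 and 35.4 rpm, lie below every knockdown point of the same day, whereas in the *Klf5* panel they lie above every knockdown point on days 6 and 7.

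**Figure D2:**
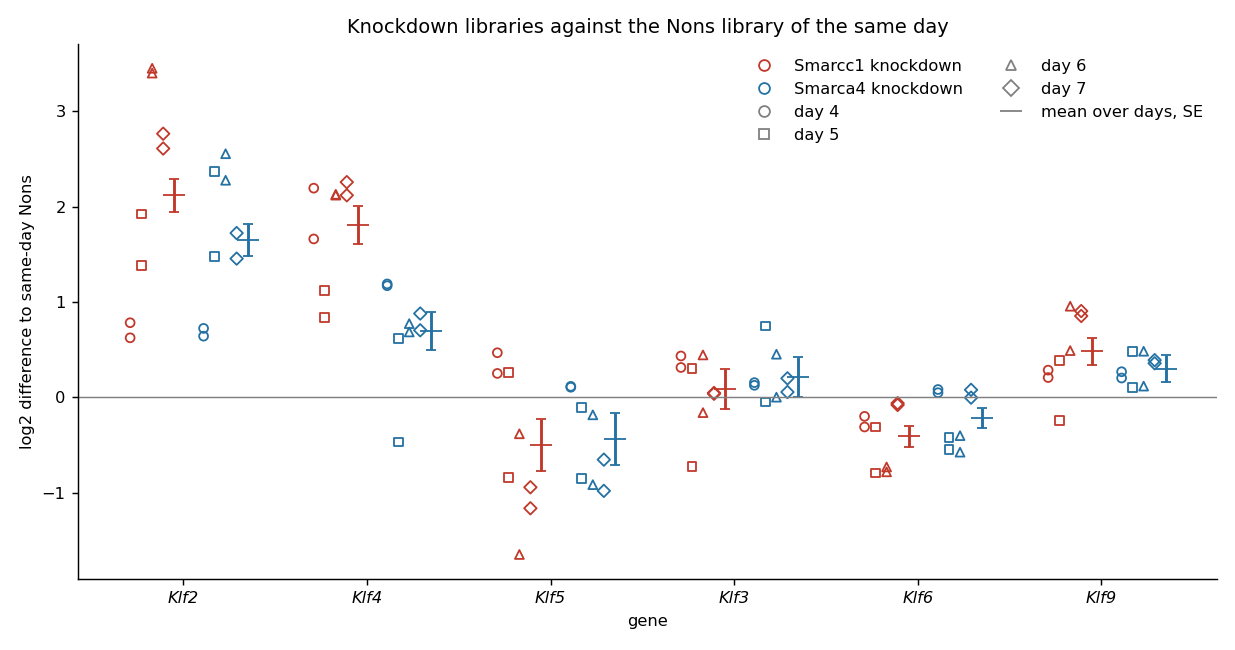
Log2 difference of each of the 16 knockdown libraries to the Nons library of the same day (open symbols, shape by day), with the mean over the 4 days and its SE (bars), for *Smarcc1* knockdown (red) and *Smarca4* knockdown (blue). The *Klf2* symbols are above 0 in 16 of 16 libraries, and the *Smarcc1* mean for *Klf2* (2.12) is the highest in the plot.

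*Klf2* (chr8:72319033-72321656 in mm10, plus strand) was higher than in Nons in 16 of 16 knockdown libraries. In Nons it was at 35.4, 9.12, 2.67 and 6.29 rpm on days 4, 5, 6 and 7, the third of these resting on 42 reads. With *Smarcc1* knockdown it was at 60.9, 23.7, 28.3 and 42.8 rpm for Smarcc1.6 and at 54.6, 34.6, 29.3 and 38.4 rpm for Smarcc1.7. Both hairpins therefore lay above Nons on each day, by 1.54-fold to 1.72-fold on day 4 and by 10.6-fold to 11.0-fold on day 6. With *Smarca4* knockdown it was at 58.5, 25.3, 15.7 and 20.8 rpm for Smarca4.4 and at 55.3, 47.0, 13.0 and 17.2 rpm for Smarca4.6. These libraries also lay above the single Nons library on each day, and on days 6 and 7 they lay between Nons and the *Smarcc1* libraries. The share of all genes tested with such a pattern is not given here. Counts of libraries above or below Nons, for *Klf2* and the other factors, are therefore descriptions only.

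Over the 4 days the mean log2 difference of *Klf2* to Nons was 2.12 (SE 0.17, adjusted p = 8.74e-06) with *Smarcc1* knockdown and 1.65 (SE 0.17, adjusted p = 0.000262) with *Smarca4* knockdown. Both calls held under each of 18 alternative settings, with log2 differences of 1.68 to 2.59 and of 1.14 to 1.98. With the series as a replicate block the SE was 0.23, and the adjusted p was 0.000227 for *Smarcc1* and 0.00435 for *Smarca4* knockdown. The difference between the knockdowns, 0.47 (SE 0.14), did not pass the test (adjusted p = 0.0870). When each hairpin was set against Nons in a model of series and day, the 4 hairpins gave log2 differences of 2.08 for Smarcc1.6, 2.15 for Smarcc1.7, 1.62 for Smarca4.4 and 1.69 for Smarca4.6 (SE 0.35 each). All 4 were called, where 9.49%, 22.4%, 5.52% and 6.23% of all genes were called for these hairpins. In this model the 4 days of a hairpin series served as its replicates and Nons was shared, so the calls are not independent repeats. The hairpins of one target differed by 0.07 (SE 0.35) for either target.

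On single days *Klf2* was called on days 6 and 7, at 3.43 (SE 0.34, adjusted p = 0.000164, where 2.84% of all genes were called) and 2.69 (adjusted p = 0.000610, 4.35% called) with *Smarcc1* knockdown, and at 2.42 (adjusted p = 0.00649, 0.970% called) and 1.59 (adjusted p = 0.0338, 1.59% called) with *Smarca4* knockdown. The call of *Klf2* on day 7 with *Smarca4* knockdown was kept in 4 of 12 alternative settings (adjusted p from 0.00976 to 0.161). On day 5 the log2 differences were 1.65 with *Smarcc1* and 1.92 with *Smarca4* knockdown (SE 0.34 each). They were not called (adjusted p = 0.0827 and 0.0984), where 0.143% and 0% of all genes were called. On day 4 the log2 differences were 0.70 and 0.68 (SE 0.34 each) and did not pass the test. On that day no gene was called with either knockdown. The fit shares a single residual spread over the days, and hairpin gaps were wider on days 5 and 6 than on day 4. The missed calls therefore do not show that *Klf2* was unchanged on days 4 and 5. The slope over days exceeded that of Nons by 0.77 log2 units per day (SE 0.15, adjusted p = 0.0346) with *Smarcc1* knockdown, where 0.940% of all genes were called, and this was lost in 8 of 13 alternative settings (adjusted p from 0.0106 to 0.690). For *Smarca4* knockdown the excess was 0.32 per day (SE 0.15, adjusted p = 0.970, 0.135% of all genes called). Relative to its own day 4, *Klf2* was at 7.55% on day 6 in Nons, at 46.4% and 53.6% with the *Smarcc1* hairpins and at 26.9% and 23.5% with the *Smarca4* hairpins.

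In these bulk samples fewer cells of a type and less RNA per cell cannot be told apart. Summed marker levels of some other cell types differed from the single Nons library of days 6 and 7. In single-day tests of these days, no mesoderm or fibroblast marker was called with either knockdown. Among the trophoblast markers 1 was called, lower with *Smarcc1* knockdown on day 6. On both days 1 endoderm marker was called higher with *Smarcc1* knockdown and 1 neural marker with each knockdown. The 8 trophoblast markers, led by the keratins *Krt8* and *Krt18*, summed to 1245 and 3318 rpm in Nons on days 6 and 7, to 497 to 501 and 1519 to 1579 rpm with *Smarcc1* knockdown, and to 944 to 1087 and 1987 to 2898 rpm with *Smarca4* knockdown. The 5 fibroblast markers summed on day 7 to 52.8 rpm in Nons, to 103 to 125 rpm with *Smarcc1* knockdown and to 29.3 to 46.2 rpm with *Smarca4* knockdown. The calls from here on are those over the 4 days. Of the 6 trophoblast markers tested, 1 was called higher and 2 lower with *Smarcc1* knockdown and 2 higher with *Smarca4* knockdown. Of the 4 fibroblast markers tested, 1 was called higher with *Smarcc1* knockdown. With the series as a replicate block, 1 trophoblast marker was called with each knockdown, and the fibroblast call was lost. The 8 endoderm markers stayed at or below 39.6 rpm in sum in every library, the 6 mesoderm markers at or below 21.4 rpm, and the 4 neural markers measured lay between 57.8 and 182 rpm. On day 7 the mesoderm sum was 8.05 rpm in Nons, 16.5 to 20.1 rpm with *Smarcc1* and 14.0 to 21.4 rpm with *Smarca4* knockdown. The day 7 neural sum was 135 rpm in Nons, 120 to 126 rpm with *Smarcc1* and 99.1 to 104 rpm with *Smarca4* knockdown. The endoderm sum was 39.6 rpm in Nons, 37.2 to 39.2 rpm with *Smarcc1* and 32.8 to 34.0 rpm with *Smarca4* knockdown. Both sums were thus highest in Nons on day 7, while on day 6 knockdown libraries lay on both sides of it. With each knockdown 1 of 2 endoderm, 1 of 2 mesoderm and 1 of 4 neural markers tested were called higher, and of these the neural count alone was kept with the block. The 6 pluripotency markers summed on day 7 to 1051 rpm in Nons, to 1380 to 1773 rpm with *Smarcc1* and to 1231 to 1267 rpm with *Smarca4* knockdown, and 2 and 1 of them were called higher (1 and 1 with the block). Of the trophoblast sum in Nons on day 7, *Krt8* gave 1569 and *Krt18* 1712 rpm, and the transcription factors *Tfap2c* 15.0, *Gata3* 11.9, *Hand1* 5.91 and *Eomes* 4.42 rpm, each of which was read in all 20 libraries. *Cdx2* and *Elf5*, from the same list, had no reads there and reached at most 1.28 and 0.319 rpm in any library. *Cdx2* was without reads in 2 and *Elf5* in 6 of the 20 libraries, as were the endoderm marker *Ttr* in 9, the mesoderm marker *Mesp1* in 10 and the fibroblast marker *Col3a1* in 7. The part of these cells in the *Klf2* and *Klf4* differences was not tested.

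*Klf4* (chr4:55527143-55532466, minus strand) was higher than in Nons in 15 of 16 knockdown libraries. In Nons it was at 7.32, 2.63, 1.15 and 1.49 rpm on days 4 to 7, the last 3 values resting on 52, 18 and 28 reads. With *Smarcc1* knockdown it was at 33.5, 4.71, 4.98 and 7.14 rpm for Smarcc1.6 and at 23.2, 5.74, 5.01 and 6.49 rpm for Smarcc1.7. These 8 libraries lay above Nons on every day, from 1.79-fold on day 5 to 4.78-fold on day 7. With *Smarca4* knockdown it was at 16.7, 1.90, 1.96 and 2.74 rpm for Smarca4.4 and at 16.5, 4.03, 1.84 and 2.43 rpm for Smarca4.6. Of these, 7 of 8 lay above Nons, by up to 2.28-fold, and the exception was the smallest library (Smarca4.4 on day 5), with 13 reads of *Klf4*.

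The mean log2 difference of *Klf4* to Nons was 1.81 (SE 0.20, adjusted p = 9.95e-05) with *Smarcc1* knockdown and was called in each alternative setting that tested it. With the series as a replicate block its SE was 0.27 and its adjusted p 0.00193. With *Smarca4* knockdown the mean log2 difference was 0.69 (SE 0.20) and missed the threshold (adjusted p = 0.0564). Without the smallest library it was 0.83 (adjusted p = 0.00617), without day 5 it was 0.90 (adjusted p = 0.00746), and it was called at 0.99 (adjusted p = 0.00346) when days 4 and 7 alone were fitted; over all its alternatives the adjusted p ran from 0.00346 to 0.344. The fit of days 4 and 7 alone was chosen after seeing the data, and these are the days with the narrower hairpin gaps. The direct comparison gave a higher level of *Klf4* with *Smarcc1* than with *Smarca4* knockdown, by 1.11 (SE 0.16, adjusted p = 0.00234). This call was lost without Smarcc1.6 (1.07, adjusted p = 0.0801) and without day 7 (1.02, adjusted p = 0.0745). On single days *Klf4* was called with *Smarcc1* knockdown on day 6 (2.13, SE 0.40, adjusted p = 0.0114) and day 7 (2.19, SE 0.40, adjusted p = 0.00699), and each of these calls was kept in 8 of 11 alternative settings. On day 4 its difference was of similar size (1.93, SE 0.40, adjusted p = 0.237), on a day when no gene was called. On day 5 it was 0.98 (SE 0.40, adjusted p = 0.652).

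Relative to its own day 4, *Klf4* was on day 6 at 15.7% of day 4 in Nons, at 14.9% and 21.7% with the *Smarcc1* hairpins, and at 11.7% and 11.2% with the *Smarca4* hairpins, so that Nons lay inside the range of the knockdown series. The slope over days minus that of Nons was 0.19 log2 units per day (SE 0.18, adjusted p = 0.897) with *Smarcc1* and -0.05 (SE 0.18, adjusted p = 1.00) with *Smarca4* knockdown. *Klf2* and *Klf4* had a Pearson r of 0.84 across the 20 libraries on log2 rpm, and of 0.79 after the mean of each day was subtracted; the libraries share days and series, so these are descriptions only.

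**Figure D3:**
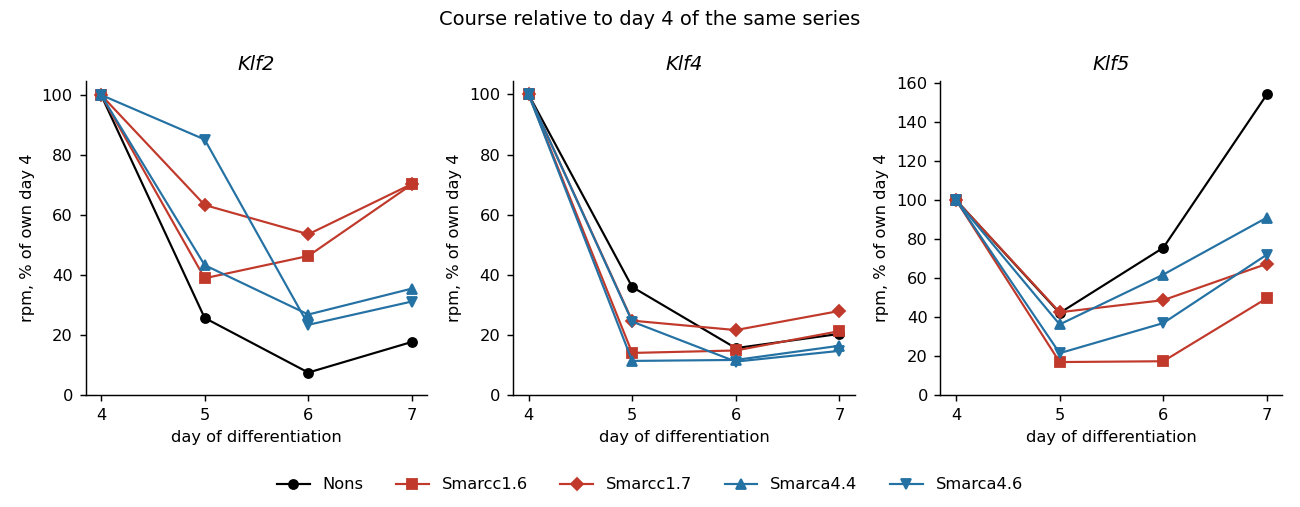
Level of *Klf2*, *Klf4* and *Klf5* as a percentage of the day 4 level of the same series, by day of differentiation, with 1 line per series (Nons black, *Smarcc1* hairpins red, *Smarca4* hairpins blue). For *Klf2* the Nons line (7.55% on day 6) runs below the 4 knockdown lines, for *Klf4* the 5 lines lie between 11.2% and 21.7% on day 6, and for *Klf5* the Nons line reaches 154% on day 7.

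The promoter sequences of *Klf2* and *Klf4* are shown because these factors were higher with *Smarcc1* knockdown. They come from RefSeq for GRCm38.p6 (the assembly of mm10), run from 250 bases before to 50 bases after the start site on the gene's strand, and are written in lower case with each match to CACCC or GGGCGG, on either strand, in capitals. *Klf2* lies at chr8:72318812-72319111 (plus strand) and *Klf4* at chr4:55532426-55532725 (minus strand).
Klf2: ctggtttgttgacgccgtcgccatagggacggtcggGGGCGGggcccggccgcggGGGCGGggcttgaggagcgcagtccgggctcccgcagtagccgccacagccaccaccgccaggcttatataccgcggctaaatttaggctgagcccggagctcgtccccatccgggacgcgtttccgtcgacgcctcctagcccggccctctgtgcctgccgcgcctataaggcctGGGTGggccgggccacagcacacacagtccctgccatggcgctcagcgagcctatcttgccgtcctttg
Klf4: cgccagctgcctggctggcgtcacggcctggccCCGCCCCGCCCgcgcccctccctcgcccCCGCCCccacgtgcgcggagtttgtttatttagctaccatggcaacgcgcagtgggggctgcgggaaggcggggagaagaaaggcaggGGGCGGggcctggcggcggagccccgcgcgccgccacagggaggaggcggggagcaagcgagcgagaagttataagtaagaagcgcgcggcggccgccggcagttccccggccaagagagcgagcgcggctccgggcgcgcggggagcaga
The *Klf2* window holds 1 CACCC and 2 GGGCGG matches, and the *Klf4* window holds 0 and 4, of which 2 overlap each other. Of the 32851 promoter windows of this length in the table, 57.5% hold a CACCC match and 35.7% a GGGCGG match. The Stat-type palindrome TTCNNNGAA, found in 8.30% of all windows, had no match in the *Klf2*, *Klf3*, *Klf4* or *Klf6* window and 1 in that of *Klf9*. *Klf5* was not among the 5 of 6 factors matched.

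*Klf5* (chr14:99298691-99313405, plus strand) was not called in either knockdown. In Nons it was at 12.4, 5.22, 9.35 and 19.1 rpm on days 4 to 7. With *Smarcc1* knockdown it was at 17.1, 2.91, 2.98 and 8.51 rpm for Smarcc1.6 and at 14.7, 6.26, 7.17 and 9.92 rpm for Smarcc1.7, and with *Smarca4* knockdown at 13.3, 4.83, 8.23 and 12.1 rpm for Smarca4.4 and at 13.4, 2.89, 4.96 and 9.66 rpm for Smarca4.6. The 4 knockdown libraries lay above Nons on day 4, by 1.08-fold to 1.38-fold, and all 8 lay below it on days 6 and 7, at 31.9% to 88.0% of it. None of these single-day differences to the 1 Nons library of the day was called with either knockdown. The hairpins of *Smarcc1* were also far apart, with a log2 gap of 1.27 on day 6.

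The mean log2 differences of *Klf5*, -0.50 (SE 0.27, adjusted p = 0.307) with *Smarcc1* and -0.43 (SE 0.27, adjusted p = 0.421) with *Smarca4* knockdown, did not pass the test in any setting. The slope over days minus that of Nons was -0.50 log2 units per day (SE 0.24, adjusted p = 0.565) with *Smarcc1* and -0.29 (SE 0.24, adjusted p = 1.00) with *Smarca4* knockdown. Over the mean of the 3 groups *Klf5* fell from day 4 to day 5 by 1.66 on the log2 scale (SE 0.30, adjusted p = 0.000995) and rose from day 6 to day 7 by 0.93 (SE 0.30, adjusted p = 0.0355), so that day 7 and day 4 differed by -0.16 (adjusted p = 0.660).

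*Klf6* (chr13:5861489-5870393, plus strand) had the largest log2 difference of the 6 between days 4 and 7 over the mean of the groups, although *Klf4* and *Klf2* had the wider range over the 20 libraries. In Nons it was at 40.4, 68.7, 349 and 280 rpm on days 4 to 7, and the 4 hairpin series went from between 32.5 and 42.7 rpm on day 4 to between 264 and 295 rpm on day 7. From day 5 to day 6 it rose by 2.28 on the log2 scale (SE 0.12, adjusted p = 1.14e-07) over the mean of the groups. With *Smarcc1* knockdown it was lower than in Nons in 8 of 8 libraries, at 57.6% to 95.8% of it. The values on day 6 were 210 and 203 rpm with the *Smarcc1* hairpins and 234 and 264 rpm with the *Smarca4* hairpins, so Nons was above all 4. On day 7 the 4 hairpin series were within 1.06-fold of Nons.

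The mean log2 difference of *Klf6* was -0.41 (SE 0.11, adjusted p = 0.0291) with *Smarcc1* knockdown. With days 4 and 7 alone the difference was -0.16 (adjusted p = 0.123). With *Smarca4* knockdown the difference was -0.22 (SE 0.11, adjusted p = 0.299).

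*Klf9* (chr19:23141226-23166911, plus strand) was the steadiest of the 6, with a highest level 2.31 times its lowest over the 20 libraries. In Nons it was at 111, 86.3, 83.8 and 90.3 rpm on days 4 to 7. With *Smarcc1* knockdown it was at 135, 73.1, 118 and 163 rpm for Smarcc1.6 and at 128, 113, 163 and 169 rpm for Smarcc1.7, and with *Smarca4* knockdown at 134, 120, 117 and 118 rpm for Smarca4.4 and at 128, 92.9, 90.9 and 116 rpm for Smarca4.6. It was above Nons in 15 of 16 knockdown libraries, the exception being Smarcc1.6 on day 5.

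The mean log2 difference of *Klf9* with *Smarcc1* knockdown, 0.48 (SE 0.14), lay just outside the threshold (adjusted p = 0.0504). It was called in 9 of 18 alternative settings, among them without day 5 (0.62, adjusted p = 0.00943) and with days 4 and 7 alone (0.56, adjusted p = 0.000456), and it was at an adjusted p of 0.194 with the replicate block. With *Smarca4* knockdown the difference was 0.30 (SE 0.14, adjusted p = 0.276), and it was called with days 4 and 7 alone (0.30, adjusted p = 0.0192). That setting was chosen after seeing the data and keeps the days with the narrower hairpin gaps.

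*Klf3* (chr5:64803523-64830129, plus strand) was not called in either knockdown, and its hairpins lay far apart on day 5. In Nons it was at 18.9, 18.0, 26.2 and 39.8 rpm on days 4 to 7. On day 7 the 4 knockdown libraries held 40.8 to 45.7 rpm, whereas on day 5 they ran from 10.9 rpm (Smarcc1.6) to 30.3 rpm (Smarca4.6) on both sides of Nons. The mean log2 differences were 0.09 (SE 0.21, adjusted p = 0.843) and 0.21 (SE 0.21, adjusted p = 0.636), and the first turned negative without Smarcc1.7 (-0.10) and without day 4 (-0.01).

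Over the timecourse, from day 4 to day 7, 2 of the 6 factors rose and 2 fell over the mean of the 3 groups, where 64.5% of all genes were called (35.7% higher and 28.8% lower). The median of all genes was 0.08 in this comparison and -0.09 after centring on the median gene, which left these 4 calls in place. *Klf6* rose by 2.84 (SE 0.12, adjusted p = 1.30e-09) and *Klf3* by 0.96 (SE 0.23, adjusted p = 0.00223). *Klf4* fell by 2.34 on the log2 scale (SE 0.22, adjusted p = 9.80e-07) and *Klf2* fell by 1.53 (SE 0.18, adjusted p = 1.01e-05). *Klf9* and *Klf5* were not called over this interval. Step by step, *Klf2* fell by 1.23 from day 4 to 5 and by 1.01 from day 5 to 6 and then rose by 0.71 from day 6 to 7 (adjusted p = 0.0149), and *Klf4* fell by 2.16 in the first of these steps and by 0.60 in the second (adjusted p = 0.0489). The second-step call of *Klf4* was kept in 5 of 11 alternative settings (adjusted p from 0.00444 to 0.183), and Smarcc1.6 and Smarca4.4 were at 106% and 103% of their day 5 level on day 6. In these steps 38.7%, 32.3% and 27.5% of all genes were called.

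The genes were ordered by level only per kilobase of annotated exon (GENCODE M21 lengths, from 1847 bases for *Klf2* to 11243 for *Klf3*), which takes the isoforms in use as unknown. In Nons on day 4 the order was *Klf9* (23.1 rpm per kb), *Klf2* (19.2), *Klf6* (9.19), *Klf4* (2.40), *Klf5* (2.38) and *Klf3* (1.68), where *Klf4* and *Klf5* could not be separated in a single library. On day 6 *Klf6* led at 79.5 rpm per kb, followed by *Klf9* at 17.4, and *Klf2* (1.45) had dropped below *Klf3* (2.33) and *Klf5* (1.80), with *Klf4* last at 0.376. In the knockdown libraries of day 6 *Klf2* came directly after *Klf6* and *Klf9*, at 15.3 and 15.8 rpm per kb with the *Smarcc1* hairpins and at 8.51 and 7.02 with the *Smarca4* hairpins.

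**Figure D4:**
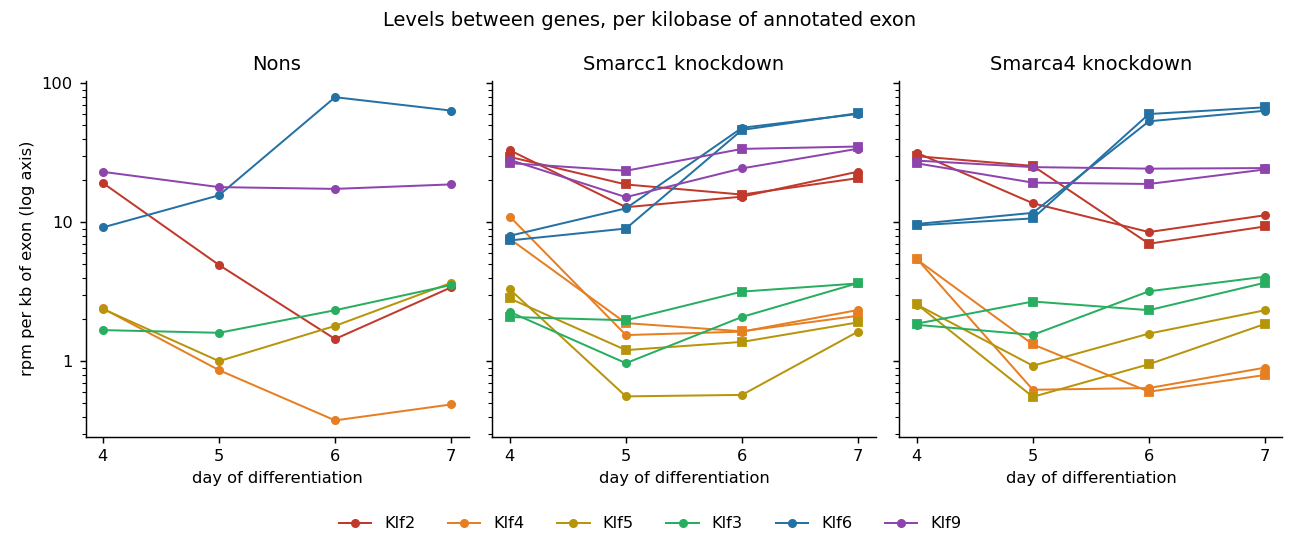
Levels of the 6 genes in rpm per kilobase of annotated exon (log axis) by day, in Nons and in the 2 knockdowns (circles and squares mark the 2 hairpins of a target). *Klf2* (red) runs from 19.2 to 1.45 between days 4 and 6 in Nons, and on day 6 it is at 15.3 and 15.8 with *Smarcc1* knockdown.

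Of the 20 other Kruppel-like and Sp family genes listed, 14 were tested. With *Smarcc1* knockdown 2 were higher, and with *Smarca4* knockdown 1 was higher, with median log2 differences of 0.28 and 0.25. Over all genes tested 7.54% and 4.75% were called higher in these comparisons, which are also the shares to set beside the lists that follow (3.08% and 1.96% were called lower). *Klf17*, a factor of early embryonic and germ cell stages, was at 2.44, 1.37, 0.254 and 0.0533 rpm in Nons, the last 2 values resting on 4 reads and 1 read. On day 7 it was at 2.06 and 1.37 rpm with the *Smarcc1* hairpins and at 0.686 and 2.13 rpm with the *Smarca4* hairpins, all above Nons. Its log2 difference was 2.23 (SE 0.32, adjusted p = 0.000635) with *Smarcc1* and 1.80 (SE 0.32, adjusted p = 0.00466) with *Smarca4* knockdown. The second had an adjusted p of 0.0533 with the replicate block, and both rest on the few Nons reads of the last 2 days. The mean log2 rpm of *Klf17* in Nons alone lies below the filter on low values. It passed that filter only through the knockdown libraries, where it is high, so its calls are descriptions only. *Klf8*, a repressor related to *Klf3*, was higher with *Smarcc1* knockdown by 0.67 (SE 0.13, adjusted p = 0.00419).

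**Figure D5:**
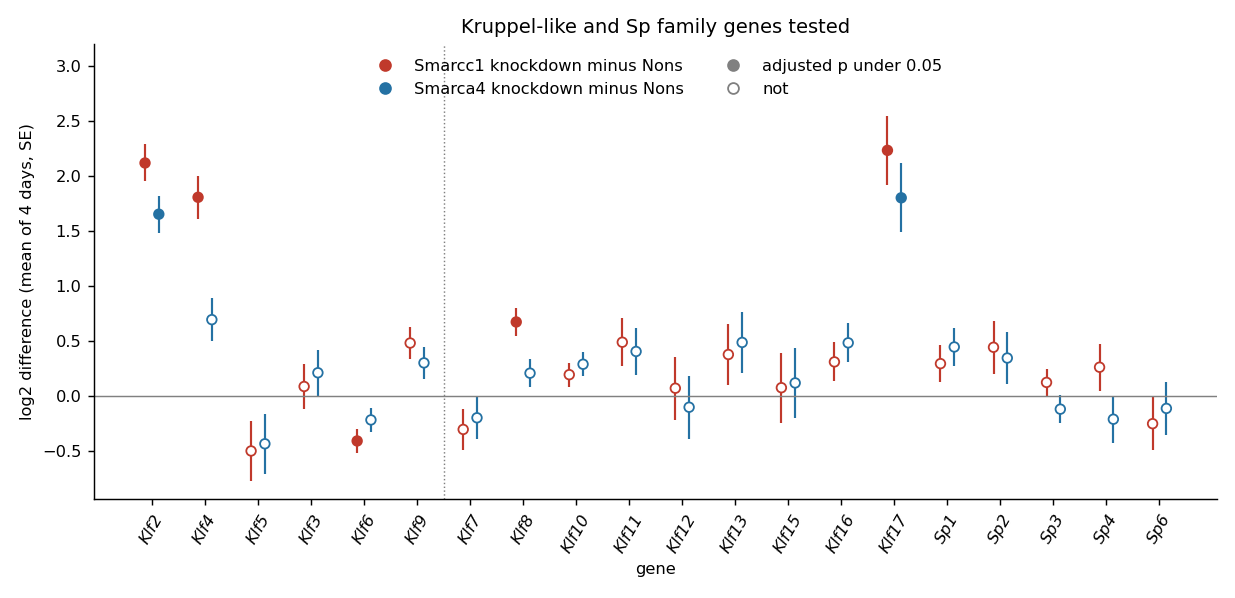
Mean log2 difference to Nons over the 4 days with its SE for the 6 genes (left of the dotted line) and the 14 other family members tested, for *Smarcc1* knockdown (red) and *Smarca4* knockdown (blue), with filled symbols for an adjusted p under 0.05. *Klf2*, *Klf4* and *Klf17* stand highest with *Smarcc1* knockdown, at 2.12, 1.81 and 2.23.

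The partners of *Klf2*, *Klf4* and *Klf5* in the naive network were followed in the same comparisons. Of 13 listed, 12 were tested, and 8 were higher with *Smarcc1* knockdown and 5 with *Smarca4* knockdown (6 and 3 with the replicate block); the medians were 0.96 and 0.80. With *Smarcc1* knockdown the widest differences were those of the nuclear receptors *Nr5a2* (2.37, SE 0.24, adjusted p = 5.86e-05) and *Esrrb* (1.84, SE 0.19, adjusted p = 6.90e-05), followed by the homeobox gene *Gbx2* (1.58) and the T-box gene *Tbx3* (1.51, adjusted p = 0.108 with the replicate block). With *Smarca4* knockdown they were those of *Esrrb* (1.24, adjusted p = 0.00181), *Dppa3* (1.13, adjusted p = 0.0634 with the block), *Nr5a2* (0.95, adjusted p = 0.145 with the block) and *Nanog* (0.84, adjusted p = 0.0274 with the block). *Esrrb* was at 48.4, 9.12, 3.05 and 3.14 rpm in Nons on days 4 to 7, and at 146 and 122 rpm on day 4 with the *Smarcc1* hairpins. From day 4 to day 7, 9 of the 12 fell and 1 rose.

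The LIF and Stat3 pathway, the upstream signal of *Klf4*, was measured through 9 genes. With *Smarcc1* knockdown 2 were higher, and both encode receptor chains: *Lifr* by 0.86 (SE 0.14, adjusted p = 0.00202) and *Il6st* by 0.78 (SE 0.14, adjusted p = 0.00254). With *Smarca4* knockdown 1 was higher, the feedback inhibitor *Socs3*, by 1.12 (SE 0.25, adjusted p = 0.0195, and 0.163 with the replicate block). *Lifr* was at 36.7 rpm in Nons on day 4 and at 71.4 and 60.3 rpm with the *Smarcc1* hairpins. The list medians were 0.41 and 0.28.

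Among 8 formative and primed state genes, 1 was higher and 2 lower with *Smarcc1* knockdown, and 2 were lower with *Smarca4* knockdown. The growth factor gene *Fgf5* differed by -1.31 (SE 0.25, adjusted p = 0.00450) and -1.10 (adjusted p = 0.0193, and 0.0820 with the replicate block), *Otx2* differed by -0.45 and -0.60 (adjusted p = 0.129 and 0.0657 with the block), and the DNA methyltransferase gene *Dnmt3a* was higher by 0.81 with *Smarcc1* knockdown (adjusted p = 0.00672, and 0.0583 with the block). Of the 11 immediate early genes tested, a class to which *Klf6* belongs, 1 was higher (*Fos*) and 2 lower (*Atf3* and *Btg2*) with either knockdown, of which *Atf3* alone was called with the replicate block. *Atf3*, a stress-induced factor, differed by -1.01 (SE 0.16, adjusted p = 0.00129) and -0.95 (adjusted p = 0.00373). None of the 5 glucocorticoid targets tested, a class to which *Klf9* belongs, was called by limma with either knockdown, and 1 of the 5 was at an unadjusted p under 0.05 in each.

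The genes whose profile over the 20 libraries was nearest to a factor were found by Pearson r on log2 rpm, as a description in which libraries share days and series. For *Klf2* they were *Zmym3* (0.95), *Shf* (0.94) and *Tex14* (0.93), and after subtracting the day means *Hsd17b14* (0.97), *Shf* (0.95) and *Tex14* (0.95). For *Klf4* they were *Daxx* (0.94), *Klf8* (0.94) and 9030425E11Rik (0.94), and after subtraction *Epb4.1l4a*, *Cenpm* and *Pcsk1n* (0.93 each). For *Klf5* they were *Actn4* (0.94), *Tgm1* (0.92) and *Slc6a6* (0.91). For *Klf6* they were *Tagln* (0.98), *Ilk* (0.98) and *Adcy2* (0.97), for *Klf3* *Wtip* (0.97), *Fam134a* (0.96) and *Zdhhc9* (0.96), and for *Klf9* *Efnb3* (0.94), *Phf20* (0.92) and *Efr3b* (0.91). After subtraction *Klf9* was nearest to *Mcm3ap* (0.97), *Msh6* (0.95) and *Tmem57* (0.95), *Klf3* to *Snrpa* (0.95), *Oxa1l* (0.94) and *Utf1* (0.94), *Klf5* to *Mtmr4* (0.91), Gm11946 (0.90) and Gm20459 (0.89), and *Klf6* to *Ell2* (0.88), *Mal2* (0.86) and 2410127L17Rik (0.86).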

How the data were processed

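Per the labels and the study's methods, the authors trimmed single-end 75 bp reads, mapped them to mm10 (HISAT2 is named in the processing notes, TopHat also in the methods) and deposited log2 rpm values per gene from SeqMonk. The annotation release, strand setting and HISAT2 version are not given in the sources used here. In the deposited log2 values a gene without reads stands at 0.9 of a read, and below 1000 reads values were whole within 0.1, which gave reads and library totals. Groups came from sample titles, and the 4 Nons2 libraries were not analysed here.

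limma 3.58.1 (R 4.3.3) was fitted with a trend to the log2 values of the 13296 genes with a mean of at least 0, with 1 mean per group and day (8 residual degrees of freedom); differences averaged the 4 days, and Benjamini-Hochberg adjusted p-values run over all genes tested. The code was tested on simulated data. Alternatives covered filters, log2(rpm + 1), centring, quantile normalization, voom, the series as replicate block, left-out hairpins, days or library, and other models. Deviations of hairpins correlated between days by -0.21 to 0.82, so the hairpin series was used as the block (correlation 0.22). The factors and gene lists were chosen with earlier results of these data known. Named genes were the 6 factors, the 3 nearest genes by Pearson r on each scale, the up to 4 widest called differences of a list, and the knockdown targets. Overlapping genes in GENCODE M21: *Klf3* overlaps an antisense transcript and the same-strand C230096K16Rik, and *Klf9* overlaps the same-strand microRNA gene *Mir1192*. Without the strand setting the antisense reads at *Klf3* cannot be told apart, and a strand setting would not separate same-strand reads.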

Additional observations from a re-analysis of the deposited data

Results flagged for a closer look

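*Klf2* and *Klf4* were singled out by a test of the difference itself. The slope of *Klf2* over days exceeded that of Nons by 0.77 log2 units per day with *Smarcc1* knockdown, and *Klf4* was higher with *Smarcc1* than with *Smarca4* knockdown by 1.11 on the log2 scale. The slope call was kept in 5 of 13 alternative settings and the *Klf4* call in 15 of 17.

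For *Klf5*, both hairpins of a target were above Nons on day 4 and below it later, so that the difference to Nons took opposite signs. With *Smarcc1* knockdown the mean log2 difference of day 4 exceeded that of day 6 by 1.38 and that of day 7 by 1.41. With *Smarca4* knockdown it exceeded those of days 5, 6 and 7 by 0.59, 0.66 and 0.93. These day pairs were not tested, and the linear slope over the 4 days did not pass the test for either target.

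For *Klf6* with *Smarca4* knockdown, day 4 lay above Nons and days 5 and 6 below it, with gaps of 0.551 to day 5 and 0.554 to day 6. On day 4 the *Smarcc1* hairpins were at 87.1% and 80.6% of Nons and the *Smarca4* hairpins at 106% and 103% of it. The mean log2 differences to Nons of the 2 targets were apart by -0.32. No gene was called on day 4 with either knockdown. These gaps between days and between targets were not tested.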

How the results depend on the processing

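The log2 differences of *Klf2* to Nons and of *Klf4* with *Smarcc1* knockdown kept their direction and call in each alternative that tested them. The 2 hairpins per target, the single control library a day and the 6829596 reads of Smarca4.4 on day 5 limit the precision. The SE of the mean difference to Nons was highest for *Klf5* (0.27), and *Klf4* had 13 to 60 reads in several libraries of days 5 to 7. With the hairpin series as replicate block, 2 factors were called for *Smarcc1* and 1 for *Smarca4* knockdown; over all genes the calls went from 1412 to 605, from 892 to 258 and, between the knockdowns, from 544 to 105. The block took the call from *Klf6* (adjusted p = 0.151).

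For *Smarca4* knockdown the number of factors called was 2 in place of 1 without the smallest library, 1 to 2 when hairpins or days were left out, and 3 with days 4 and 7 alone, an alternative chosen after seeing the data. Between the knockdowns it was 0 with a mean of at least 10 rpm (a filter that removes *Klf4*), 0 to 2 when hairpins or days were left out, with 0 without Smarcc1.6 or day 7, and 4 with days 4 and 7 alone. For the slope with *Smarcc1* knockdown it was 0 with at least 10 rpm, log2(rpm + 1), quantile normalization or a straight line, and 0 in each left-out-hairpin fit; the cause was not tested.

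Directions turned only for values that were not called. With days 4 and 7 alone *Klf6* was at 0.051 for *Smarca4* knockdown, and *Klf3* and *Klf5* at 0.074 and 0.0063 between the knockdowns, where *Klf5* was at 0.028 without the smallest library. Leaving out hairpins or days gave ranges of -0.10 to 0.27 for *Klf3* with *Smarcc1* knockdown, and of -0.31 to 0.063 for *Klf3* and -0.36 to 0.23 for *Klf5* between the knockdowns. For slopes the ranges were -0.0060 to 0.076 (*Klf6*, *Smarcc1*), -0.10 to 0.072 (*Klf3*, *Smarca4*), -0.13 to 0.031 (*Klf4*, *Smarca4*) and -0.041 to 0.024 (*Klf6*, *Smarca4*), with -0.018 for *Klf6* after centring (*Smarcc1*) and 0.025 after quantile normalization (*Smarca4*). *Klf4* on day 5 with *Smarca4* knockdown was at -0.068 after centring, -0.21 after quantile normalization and -0.47 to 0.62 with a hairpin left out. *Klf9* from day 4 to 7 was at 0.070 after quantile normalization and 0.0081 in the additive model. After centring *Klf6* and *Klf9* were at -0.11 and -0.014 from day 6 to 7, and *Klf3* from day 4 to 5 ran from -0.38 to 0.00081 with a hairpin left out.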
